A study of Oryza sativa with 9 samples.

Results

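Young panicles of the overexpression line ZH11-OE-1 were compared with those of the CRISPR/Cas9 knockout line ZH11-Cas9-1, the 2 transgenic genotypes of this series. Both lines were made in Zhonghua11 (ZH11), a *japonica* rice variety, whose untransformed panicles form the remaining group. ZH11-OE-1 carries the *GSE9* coding sequence under a *ubiquitin* promoter, which is active in most tissues, and ZH11-Cas9-1 carries Cas9 under a *ubiquitin* promoter and guide RNA under the *U3b* promoter, which leaves a truncated GSE9 protein. Each genotype had 3 RNA-seq libraries, 9 in all, and panicles were taken before heading according to the sample labels and before anthesis according to the methods of the study. Each transgenic genotype was 1 line, so what is particular to that line cannot be told apart from what *GSE9* does. The genes described are those with a mean of at least 1 FPKM (reads scaled by gene length and library size) over the 6 libraries of both lines, 21732 of the 37863 genes of the table. Differences are given as log2 fold changes of FPKM + 1, ZH11-OE-1 minus ZH11-Cas9-1, which understate the change of genes at low FPKM.

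The spikelet hull, formed by the lemma and palea, encloses the rice grain and sets the space in which it fills. Its final size depends on how many cells divide along and across the hull and how far they expand. Grain shape genes of rice fall into a few signalling routes that act on these processes: ubiquitin-dependent protein turnover, heterotrimeric G proteins, MAP kinases, brassinosteroid, auxin and other hormones, and transcription factors of the SPL, GRF and AP2 families. *GSE9* itself is described by the study as a gene that likely arose de novo in wild rice and passed to most *japonica* varieties. It encodes an open reading frame with no annotated domain.

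The sequences that define the 2 lines are shown here as far as the primers of the study hold them, 5′ to 3′, to make clear what was expressed and what was cut. The coding sequence that was overexpressed starts and ends as follows, with the start and stop codons in capitals.
GSE9 coding start: ATGccccaacctcgtccg
GSE9 coding end: caagtgttttatttgtttgtgttttaTGA
The Cas9 oligo carries the following 20 bases as its guide, which also stand in a 3′ RACE primer of the gene, so that the guide reads as the transcript does. The methods name a further guide, which is not shown here.
GSE9 guide: atcccctgtccgtcgggcat
No row of the table is paired with the name or the locus identifier of *GSE9*, so the level of the targeted gene is not reported here.

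In total, 5223 of the 21732 genes (24.0%) passed the test, of which 1767 (8.13%) rose and 3456 (15.9%) fell in ZH11-OE-1 relative to ZH11-Cas9-1 (limma, Benjamini-Hochberg adjusted p under 0.05). Falls outnumbered rises most clearly among larger changes: of the 580 called genes that differed by at least 1 on the log2 scale, 56 rose and 524 fell in ZH11-OE-1. At a log2 fold change of at least 2 the numbers were close, with 22 higher and 19 lower. The median called rise was 0.43 and the median called fall -0.64, beside a median of -0.03 over all tested genes, and 2086 of the called genes differed by less than 0.5. In 5161 of the 5223 called genes, all 3 libraries of one line lay above all 3 of the other, beside 44.0% of all tested genes. Passing the test makes such separation likely, so it is not separate evidence for the calls. The excess of falls depended on scaling: with quantile normalization 3011 genes rose and 2844 fell in ZH11-OE-1, so that rises made up 51.4% of the calls in place of 33.8%, and with median-of-ratios rescaling the numbers were 2412 and 3219 (42.8%).

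**Figure D1:**
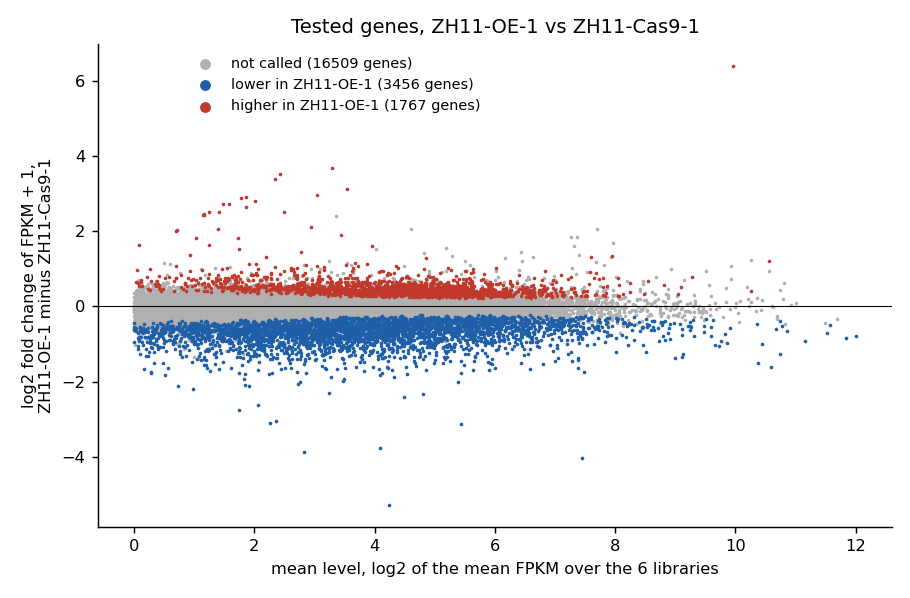
Each point is 1 of the 21732 tested genes, with the log2 of its mean FPKM over the 6 libraries on the horizontal axis and its log2 fold change of FPKM + 1, ZH11-OE-1 minus ZH11-Cas9-1, on the vertical axis. Of the 1767 genes higher in ZH11-OE-1 (red) 56 differ by at least 1, and of the 3456 lower ones (blue) 524 do, while the largest rise lies at 6.39.

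The share of genes called grew with their level. Of genes with a mean of 1 to 2 FPKM, 1.89% rose and 8.68% fell in ZH11-OE-1, whereas of the 1086 genes at 100 FPKM or more, 9.12% were higher and 26.2% lower. The changed genes were spread over the genome. Across the 12 chromosomes, read from the identifiers, between 7.48% and 9.49% of the tested genes rose and between 14.1% and 17.95% fell. In 864 windows of 25 neighbouring tested genes, at most 8 were higher (median 2) and at most 10 lower (median 4).

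The count of calls depended on which library was left out, and ran from 2360 to 5653. It dropped to 2360 when ZH11-OE-1 replicate 2 was left out, to 2874 when ZH11-Cas9-1 replicate 1 was left out, and to 2636 when ZH11-Cas9-1 replicate 2 was left out. Of these calls, 498, 815 and 680 were rises. Leaving out ZH11-OE-1 replicate 3 left 1010 rises. In a principal component plot of the 9 libraries, the first component (40.4% of the variance) set the 3 ZH11-OE-1 libraries, at 33.08 to 41.33, apart from those of ZH11-Cas9-1 (-32.41 to -7.06) and ZH11 (-31.07 to -2.32). Summed FPKM ran from 635209 to 650991 in ZH11-OE-1, from 679258 to 701261 in ZH11-Cas9-1 and from 651917 to 676384 in ZH11, and was thus lowest in the 3 ZH11-OE-1 libraries. Relative depth, read from the steps between low values, differed by at most 1.15 times among the libraries.

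The largest rise was that of Os09g0242600, on chromosome 9, a gene with no annotation in the sources used here. Its FPKM was 2388, 1821 and 1711 in the 3 ZH11-OE-1 libraries, against 21.0, 23.1 and 22.9 in ZH11-Cas9-1 and 21.6, 24.2 and 18.4 in ZH11. The libraries of ZH11-Cas9-1 and ZH11 overlapped at this low level, and the log2 fold change was 6.39 (SE 0.13, limma adjusted p = 2.50e-09). The study places *GSE9* on the same chromosome, and whether the row of Os09g0242600 holds reads of the overexpressed sequence was not tested. Os09g0328332, also on chromosome 9, had 20.3, 14.9 and 21.7 FPKM in ZH11-OE-1, against 0.828, 0.715 and 0.186 FPKM in ZH11-Cas9-1 and 1.39, 0.702 and 1.01 FPKM in ZH11 (log2 fold change 3.67, SE 0.21, limma adjusted p = 4.24e-06). Every ZH11-Cas9-1 library was below 1 FPKM, so Os09g0328332 passed the filter through ZH11-OE-1 alone. The p-value of this gene is therefore not read as a measure of strength.

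The largest falls were those of Os03g0344400 and Os03g0115800. Os03g0344400, on chromosome 3, was listed at 0 in all 3 ZH11-OE-1 libraries, against 35.9, 43.6 and 34.4 FPKM in ZH11-Cas9-1, and was likewise listed at 0 in all 3 ZH11 libraries. Its reads were thus listed in the knockout line and in neither of the other 2 genotypes. No fold change of FPKM itself can be given against values of 0. On the FPKM + 1 scale used for the ranking, the difference was -5.28 (SE 0.13, limma adjusted p = 4.97e-09). Libraries listed at 0 add no spread to the fit, and the gene passed the filter through ZH11-Cas9-1 alone. Its p-value is therefore not read as a measure of strength. Os03g0115800, on the same chromosome, had 2.53, 22.5 and 85.9 FPKM in ZH11-OE-1, against 351, 299.5 and 290.3 FPKM in ZH11-Cas9-1, and at most 0.0462 FPKM in ZH11. Its level spread widely among the ZH11-OE-1 libraries, none of which reached the lowest ZH11-Cas9-1 library (log2 fold change -4.02, SE 0.83, limma adjusted p = 0.00817). In this gene both transgenic lines lay above ZH11.

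**Figure D2:**
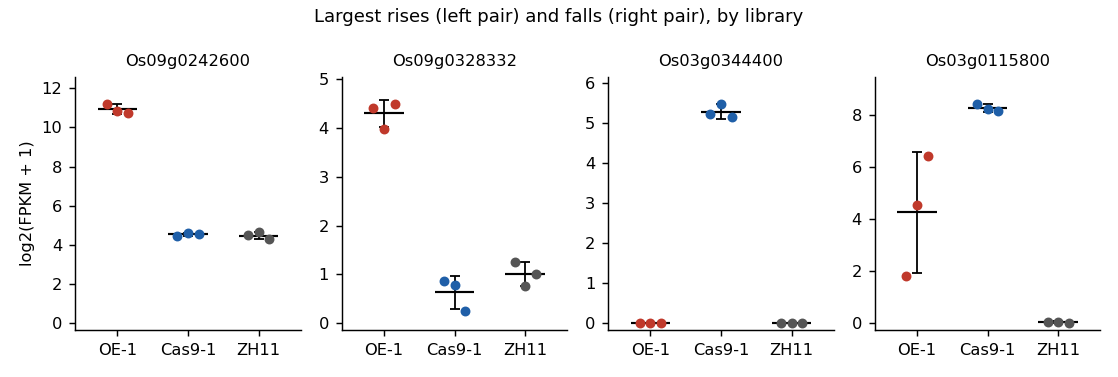
Points are single libraries, with log2(FPKM + 1) on the vertical axis, horizontal bars the means and error bars the SD of 3 libraries. The left pair of panels shows the 2 largest rises, where ZH11 lies near ZH11-Cas9-1, and the right pair the 2 largest falls, where ZH11 is at or near 0.

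Of the 15 largest rises (log2 fold changes of 2.51 to 6.39), 11 were below 1 FPKM in every ZH11-Cas9-1 library and 10 below 1 FPKM in every ZH11 library, and all 15 had a ZH11 mean nearer to that of ZH11-Cas9-1 than to that of ZH11-OE-1. The 15 largest falls were of at least 2.11 log2 units. In 13 of them the ZH11 mean was nearer to that of ZH11-OE-1, and 9 were below 1 FPKM in every ZH11-OE-1 library. In 7 of these 15, every ZH11 library was below 1 FPKM. Over the whole table, 8 genes were at 1 FPKM or more in all ZH11-OE-1 libraries and listed at 0 in all ZH11-Cas9-1 libraries, with means of 1.69 to 10.8 FPKM. In the opposite direction, 6 genes were at 1 FPKM or more in all ZH11-Cas9-1 libraries and listed at 0 in all of ZH11-OE-1, with means of 1.29 to 38.0 FPKM. None of these 14 genes exceeded 0.479 FPKM in a ZH11 library. These thresholds were chosen after the values were seen.

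Of 62 grain shape regulators listed by the study, 58 could be tied to 1 row of the table by their printed means and SDs, and 52 of these passed the filter of 1 FPKM. In total 10 of the 52 were higher in ZH11-OE-1, beside 8.13% of all tested genes, and 11 were lower, beside 15.9%. The median log2 fold change of the 52 was -0.04, near that of all genes. All 21 called genes had non-overlapping libraries in the 2 lines, as did 5161 of the 5223 called genes of the whole test. Of the 21, *OsSPL13* alone changed by more than 1 on the log2 scale.

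Transcription factors gave most of the falls, 6 of 12 tested, and 1 rise, beside 15.9% and 8.13% of all tested genes. *OsSPL13*, an SBP-domain factor that promotes grain length, had 0.877, 0.256 and 0.290 FPKM in ZH11-OE-1, against 6.72, 8.50 and 8.52 FPKM in ZH11-Cas9-1 and 2.68, 1.85 and 1.43 FPKM in ZH11. Its levels in the 3 genotypes did not overlap, with a log2 fold change of -2.61 (SE 0.20, limma adjusted p = 5.43e-05). Every ZH11-OE-1 library was below 1 FPKM, so *OsSPL13* passed the filter through ZH11-Cas9-1 alone. The p-value of this gene is therefore not read as a measure of strength. *OsSPL16*, an SBP-domain factor known for its effect on grain width, had 19.7, 20.05 and 23.8 FPKM in ZH11-OE-1, against 34.8, 42.1 and 40.1 FPKM in ZH11-Cas9-1 (log2 fold change -0.85, SE 0.12, limma adjusted p = 0.00174). ZH11, at 24.0, 28.8 and 21.6 FPKM, overlapped the ZH11-OE-1 libraries. *OsSPL18*, of the same family, had 24.9, 23.5 and 26.4 FPKM in ZH11-OE-1, against 42.2, 45.1 and 39.1 FPKM in ZH11-Cas9-1 and 34.2, 34.8 and 27.1 FPKM in ZH11, which lay between the lines (log2 fold change -0.73, SE 0.11, limma adjusted p = 0.00192). The calls of these 3 genes stood under every alternative fit in which they were tested, but *OsSPL16* and *OsSPL18* do not reach a minimum change of 1 log2 unit.

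The other transcription factors moved less. *OsGRF4*, a growth-regulating factor that increases grain size, had 1.81, 2.95 and 2.601 FPKM in ZH11-OE-1, against 4.55, 4.52 and 3.78 FPKM in ZH11-Cas9-1 (log2 fold change -0.63, SE 0.15, limma adjusted p = 0.017). *OsSNB*, an AP2 factor of spikelet development, and *APG*, a bHLH factor that limits grain length, were also lower, by log2 fold changes of -0.40 (SE 0.10, limma adjusted p = 0.018) and -0.43 (SE 0.11, limma adjusted p = 0.019). *SMOS1*, an AP2 factor that promotes cell expansion, was higher, with 14.6, 14.5 and 13.7 FPKM in ZH11-OE-1, against 10.2, 11.4 and 10.5 FPKM in ZH11-Cas9-1 (log2 fold change 0.38, SE 0.10, limma adjusted p = 0.023). *GL7*, a regulator of cell elongation along the grain, reached 0.32 and missed the threshold (95% interval 0.06 to 0.58, limma adjusted p = 0.071).

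The ubiquitin-proteasome group gave 4 rises and 1 fall among 6 tested genes, beside 8.13% and 15.9% of all tested genes. *OsHRZ2*, an E3 ubiquitin ligase, had 25.5, 29.5 and 28.7 FPKM in ZH11-OE-1, against 15.1, 15.1 and 17.97 FPKM in ZH11-Cas9-1 and 14.2, 19.96 and 22.8 FPKM in ZH11. Its log2 fold change of 0.76 (SE 0.15, limma adjusted p = 0.00697) was the largest rise of the grain shape list. *HDR3*, a protein with ubiquitin-interacting motifs, had 9.57, 11.1 and 10.4 FPKM in ZH11-OE-1, against 6.58, 7.11 and 7.77 FPKM in ZH11-Cas9-1 (log2 fold change 0.48, SE 0.11, limma adjusted p = 0.015). *GW2*, a RING-type ubiquitin ligase that restricts grain width, differed by 0.34 (SE 0.10, limma adjusted p = 0.033), and *LG1*, a ubiquitin-specific protease, by 0.26 (SE 0.08, limma adjusted p = 0.039). *TUD1*, a U-box ubiquitin ligase that works with the G protein alpha subunit in brassinosteroid responses, was lower, with 24.3, 26.3 and 31.6 FPKM in ZH11-OE-1, against 37.2, 35.2 and 34.4 FPKM in ZH11-Cas9-1 (log2 fold change -0.37, SE 0.11, limma adjusted p = 0.038).

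Among 6 G protein genes, *RGA1*, which encodes the alpha subunit, was the member that passed, with 31.3, 40.2 and 40.3 FPKM in ZH11-OE-1, against 25.5, 28.7 and 26.5 FPKM in ZH11-Cas9-1 and 26.2, 30.02 and 34.3 FPKM in ZH11 (log2 fold change 0.45, SE 0.12, limma adjusted p = 0.026). The gamma subunit genes *GS3* and *DEP1*, which set grain length and panicle form, had log2 fold changes of 0.11 (95% interval -0.19 to 0.40) and 0.02 (-0.34 to 0.38). *RGB1*, the beta subunit gene, had -0.03 (-0.19 to 0.13). The 95% interval of *RGA1*, 0.17 to 0.72, overlaps those of *GS3* and *DEP1* and lies above that of *RGB1*. Differences between these genes were not tested, and the *RGA1* call was lost in 5 of 17 alternative fits. *RGG1*, a gamma subunit gene, had 0.01 (-0.26 to 0.28). *RGG2*, another, had -0.25 (-0.47 to -0.03) with non-overlapping libraries and did not pass (limma adjusted p = 0.085).

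In the MAP kinase group, *OsRac1*, a small GTPase, had 20.01, 18.1 and 18.3 FPKM in ZH11-OE-1, against 31.0, 29.4 and 27.5 FPKM in ZH11-Cas9-1 and 30.7, 23.1 and 21.5 FPKM in ZH11 (log2 fold change -0.61, SE 0.12, limma adjusted p = 0.00717). The row given as *OsMKKK10* had 67.0, 71.5 and 68.8 FPKM in ZH11-OE-1, against 46.5, 51.4 and 48.7 FPKM in ZH11-Cas9-1 and 62.3, 67.0 and 67.0 FPKM in ZH11. The ZH11 mean was nearer to that of the overexpression line, and the log2 fold change was 0.49 (SE 0.07, limma adjusted p = 0.00222). The row given as *OsMAPK6* differed by 0.43 (SE 0.13, limma adjusted p = 0.039). The names of both rows rest on the list of the study alone and are doubtful, since their identifiers may belong to other genes. *OsMKK4*, a MAP kinase kinase that promotes grain size, had a log2 fold change of -0.27 (95% interval -0.50 to -0.05, limma adjusted p = 0.076) and overlapping libraries.

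Of 11 brassinosteroid genes, 2 fell, a share near the 15.9% of all tested genes, and none rose, beside 8.13%. *OsBZR1*, the transcription factor that carries the brassinosteroid signal to the genome, had 43.9, 43.6 and 49.1 FPKM in ZH11-OE-1, against 83.5, 81.2 and 58.5 FPKM in ZH11-Cas9-1 and 57.8, 69.3 and 55.0 FPKM in ZH11. Every ZH11-OE-1 library was thus below every other library (log2 fold change -0.68, SE 0.14, limma adjusted p = 0.00755). *SG2* had 7.21, 7.52 and 9.54 FPKM in ZH11-OE-1, against 10.6, 12.6 and 11.7 FPKM in ZH11-Cas9-1 (log2 fold change -0.48, SE 0.13, limma adjusted p = 0.028). The receptor genes *OsBRI1* and *OsBAK1* did not pass, with log2 fold changes of 0.11 (95% interval -0.09 to 0.31) and 0.20 (0.01 to 0.38).

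Auxin genes gave 2 rises and 1 fall among 5, beside 8.13% and 15.9% of all tested genes. *OsARF4*, an auxin response factor, had 80.8, 98.2 and 85.1 FPKM in ZH11-OE-1, against 63.5, 66.5 and 65.3 FPKM in ZH11-Cas9-1 and 77.0, 82.0 and 82.6 FPKM in ZH11 (log2 fold change 0.43, SE 0.09, limma adjusted p = 0.00729). *OsIAA3*, an Aux/IAA repressor of auxin signalling, had 167, 200.2 and 176 FPKM in ZH11-OE-1, against 149, 135 and 131 FPKM in ZH11-Cas9-1 and 179, 155 and 179.6 FPKM in ZH11 (log2 fold change 0.39, SE 0.10, limma adjusted p = 0.019). In both genes the ZH11 libraries overlapped those of ZH11-OE-1. *TSG1*, which encodes a tryptophan aminotransferase of auxin synthesis, had 8.09, 9.26 and 7.47 FPKM in ZH11-OE-1, against 14.4, 10.3 and 10.99 FPKM in ZH11-Cas9-1 (log2 fold change -0.47, SE 0.15, limma adjusted p = 0.043). None of the 2 gibberellin and 4 ethylene genes passed.

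**Figure D3:**
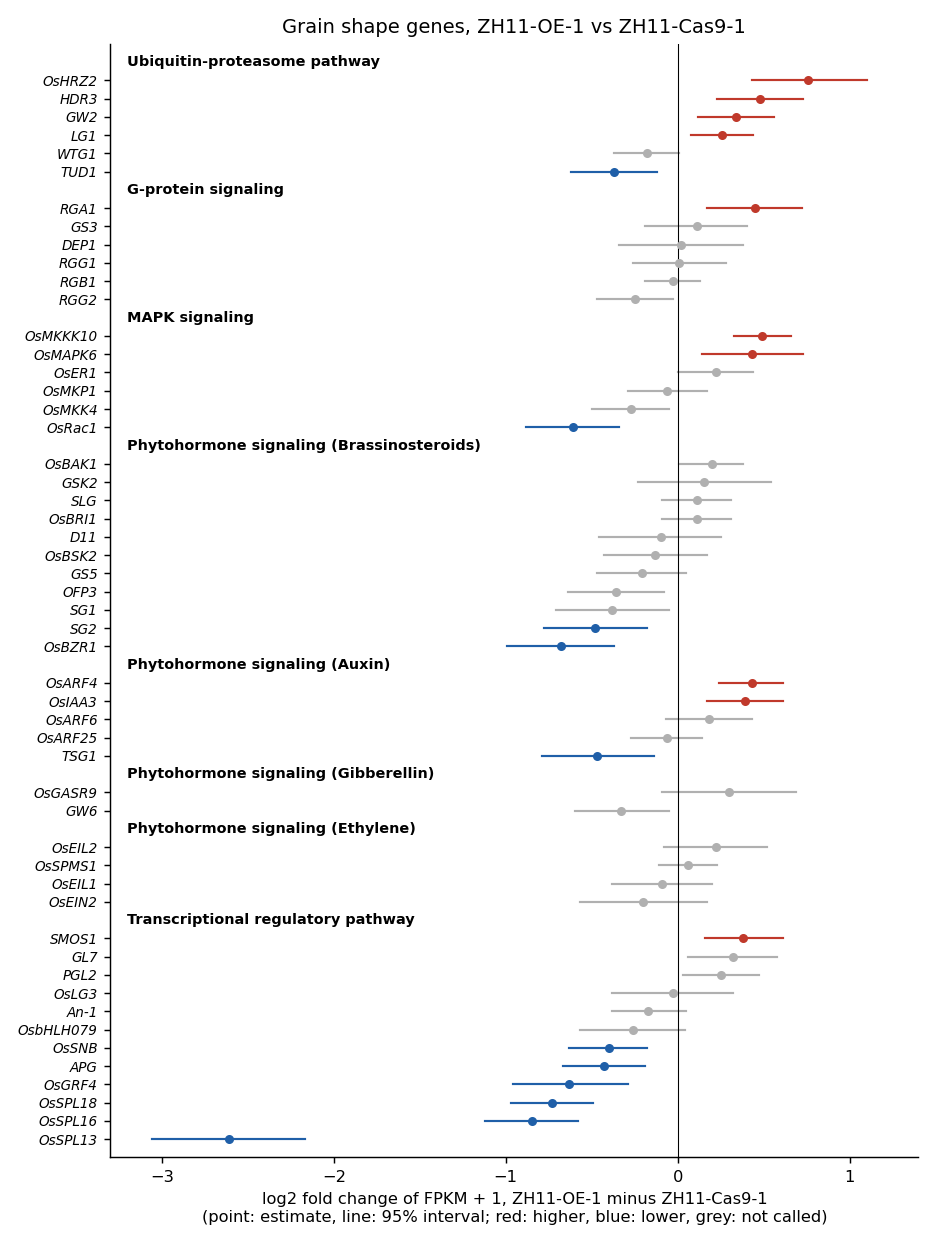
Points are the log2 fold changes of FPKM + 1 (horizontal axis), ZH11-OE-1 minus ZH11-Cas9-1, of the 52 tested grain shape genes, grouped by the pathways of the study, and lines are 95% intervals. The 10 genes higher in ZH11-OE-1 (red) stay below 1, and *OsSPL13*, at -2.61, stands apart from the 10 other lower genes (blue).

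**Figure D4:**
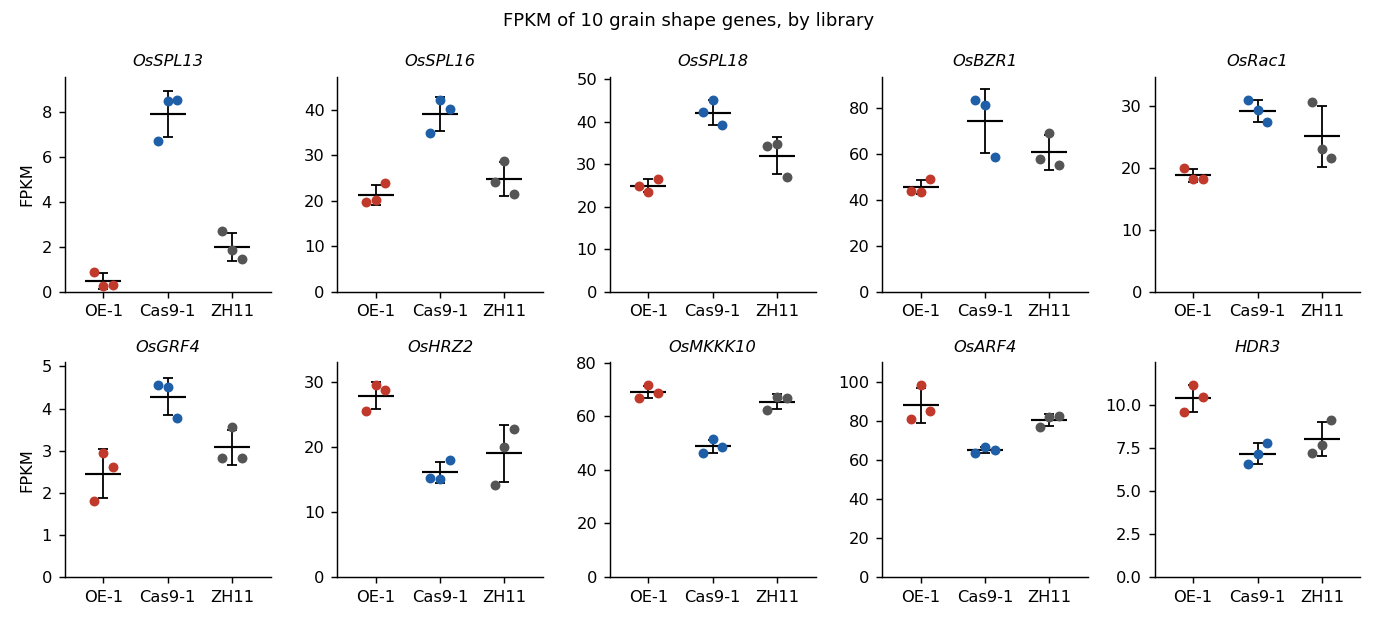
Points are single libraries, with FPKM on the vertical axis from 0, horizontal bars the means and error bars the SD of 3 libraries. The upper row and *OsGRF4* show falls in the overexpression line, and the other 4 panels rises.

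The remaining 31 grain shape genes that were tested ranged from -0.38 to 0.32 on the log2 scale. Of these, 10 had non-overlapping libraries in the 2 lines without passing the test. The share over all tested genes, 44.0%, includes 5161 of the 5223 called genes. It is therefore not a like measure for genes that did not pass. Leaving out 1 library ended many of the smaller calls. Without ZH11-OE-1 replicate 2, 11 of the 21 calls were lost (*GW2*, *TUD1*, *LG1*, *HDR3*, *RGA1*, *OsMAPK6*, *SG2*, *TSG1*, *OsIAA3*, *SMOS1* and *APG*), at adjusted p of 0.064 to 0.146. Leaving out ZH11-OE-1 replicate 1 ended 6 calls (0.056 to 0.114) and leaving out its replicate 3 ended 5 (0.057 to 0.121). For ZH11-Cas9-1, 10 calls ended when replicate 1 was left out (0.056 to 0.149), 10 when replicate 2 was (0.051 to 0.116) and 8 when replicate 3 was (0.051 to 0.108). *TSG1* was lost as well when ZH11 replicate 2 was left out (limma adjusted p = 0.055). The calls of 8 genes stood in all alternative fits in which they were tested: *OsSPL13*, *OsSPL16*, *OsSPL18*, *OsBZR1*, *OsRac1*, *OsHRZ2*, *OsARF4* and the row given as *OsMKKK10*. With a minimum change of 1 log2 unit, *OsSPL13* was the 1 grain shape call that remained.

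Cell division and cell wall genes were examined as whole lists, whose identifiers were written from background knowledge and whose members are not named. All 9 genes of the DNA replication list (helicase subunits and clamp) had positive log2 fold changes, with a median of 0.41. In the main fit 1 passed as higher, beside 8.13% of all tested genes. With median-of-ratios rescaling 3 passed, beside 2412 rises among all 21732 tested genes, and with quantile normalization 3, beside 3011. *MCM4*, a subunit of that helicase, had 4.46, 6.61 and 6.14 FPKM in ZH11-OE-1, against 3.22, 5.16 and 3.90 FPKM in ZH11-Cas9-1, and the libraries overlapped (log2 fold change 0.41, SE 0.19, limma adjusted p = 0.135). None of 10 mitotic cyclins and kinases passed (median 0.09). Expansins, wall-loosening proteins, were negative in all 13 tested members, with a median of -0.21, against 11 with median-of-ratios rescaling and 9 with quantile normalization. In all 3 scalings 2 expansins passed, both lower in ZH11-OE-1, a share near the 15.9% of all tested genes. Of 8 growth-regulating factors, 7 were negative (5 with quantile normalization) and 2 passed as lower, beside 15.9% of all tested genes (median -0.30). None of 9 cellulose synthase genes passed. With either rescaling 1 of them rose, beside 2412 (median-of-ratios) and 3011 (quantile) of all 21732 tested genes. Of 16 phenylpropanoid and lignin genes 1 passed, a fall in ZH11-OE-1, beside 15.9% of all tested genes.

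The nuclear photosynthesis list held the most calls of any list. Of its 31 members, 12 were lower and 1 higher in ZH11-OE-1, with a median of -0.27. Among all tested genes 15.9% were lower and 8.13% higher, and among those at 100 FPKM or more 26.2% and 9.12%. Summed over the list, the level was 11912, 10445 and 11499 FPKM in ZH11-OE-1, against 15786, 16078 and 14409.6 FPKM in ZH11-Cas9-1 and 19815, 15337 and 15458 FPKM in ZH11. The ZH11-OE-1 libraries thus held less than all the others. In bulk panicles fewer cells of a type and less RNA per cell cannot be told apart. The median stayed negative with median-of-ratios rescaling (-0.23) and quantile normalization (-0.15). Under these, 9 and 7 members were lower, beside 3219 and 2844 of all 21732 tested genes. The number of falls was 2 when either ZH11-OE-1 replicate 2 or ZH11-Cas9-1 replicate 2 was left out. Among all 21732 tested genes 1862 and 1956 then fell, a larger share than in the list. Without ZH11-Cas9-1 replicate 1 the list held 4 falls, beside 2059 of all tested genes. Without ZH11-OE-1 replicate 3 it held 7, beside 2935, and with no filter 7, beside 2988 of 31620 genes.

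The 22 MADS floral organ identity genes, floral genes that panicles should express, were all tested. They summed to between 1904 and 2217 FPKM in ZH11-OE-1, between 1945 and 2079.9 FPKM in ZH11-Cas9-1 and between 2004 and 2200.2 FPKM in ZH11. Of these, 3 were higher and 3 lower, beside 8.13% and 15.9% of all tested genes. With either rescaling 5 were higher and 2 lower. Among all 21732 tested genes, 2412 were higher and 3219 lower with median-of-ratios rescaling, and 3011 and 2844 with quantile normalization. Seed storage protein genes summed to at most 3.68 FPKM in any library, and neither of the 2 tested members passed. Among 11 meiosis genes 2 were higher (median 0.39), beside 8.13% of all tested genes. With quantile normalization 6 were higher, beside 3011 of all 21732 tested genes. Summed over the meiosis list, the level was 52.2, 61.9 and 67.2 FPKM in ZH11-OE-1, against 42.4, 48.7 and 49.0 FPKM in ZH11-Cas9-1, without overlap. Of 24 tapetum and pollen wall genes 1 was higher and 1 lower, and of 17 starch synthesis genes 1 was higher. Among all tested genes 8.13% were higher and 15.9% lower. The part of panicle stage in the other differences was not tested.

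Among 12 clock genes 3 were higher in ZH11-OE-1, beside 8.13% of all tested genes, with a median of 0.01 over the list. Heat shock protein genes had the largest median of all lists, 1.06. Of the 16 tested, 2 passed, both higher in ZH11-OE-1, beside 8.13% of all tested genes. The summed level of the heat shock list was 18374, 10980.1 and 11146 FPKM in ZH11-OE-1, against 5805, 7673 and 11613 FPKM in ZH11-Cas9-1 and 5711, 5434 and 9733 FPKM in ZH11. The spread within each genotype was large, and ZH11-Cas9-1 replicate 3 lay within the range of ZH11-OE-1.

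**Figure D5:**
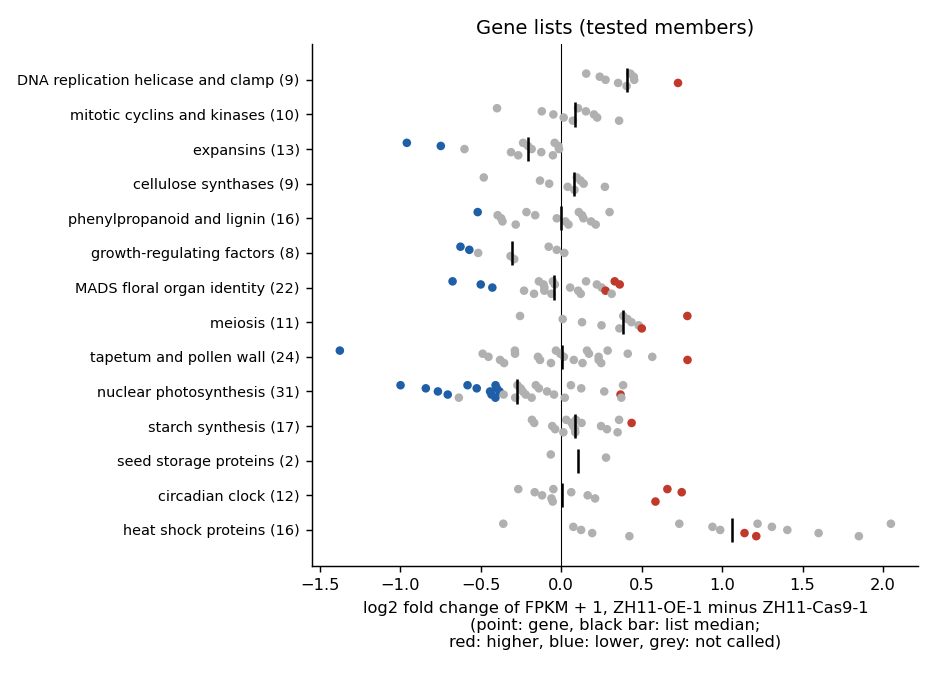
Points are the tested members of 14 gene lists (number in brackets), with their log2 fold change of FPKM + 1, ZH11-OE-1 minus ZH11-Cas9-1, on the horizontal axis, and black bars are list medians. Photosynthesis genes hold 12 of the falls (blue), and heat shock genes, with a median of 1.06, lie furthest to the right but are mostly not called (grey).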

How the data were processed

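RNA-seq was measured in 9 panicle libraries, 3 per genotype, grouped by the sample labels. Per the labels, reads were mapped with HISAT2 to IRGSP-1.0, counted per gene with featureCounts and tested with DESeq2, and the authors deposited FPKM, the only unit used here. The FPKM formula and the strand setting are not given in the sources used here. Overlapping genes and close paralogs are therefore uncertain. The labels call the 3 libraries of a genotype biological replicates and the study calls them independent repeats; whether they came from separate plants is not stated, so p-values measure the spread between these libraries.

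The test was limma 3.58.1 (R 4.3.3) on log2(FPKM + 1), fitted once to all 9 libraries (a mean per group, trended spread, two-sided), over genes whose mean reached 1 FPKM in the 6 libraries compared (16131 genes were below), and called at a Benjamini-Hochberg adjusted p under 0.05. The study's DESeq2 step needs counts and was not repeated. An exact permutation test of 3 libraries against 3 cannot go below p = 0.1, so single genes were checked only for overlap. The fit was checked on simulated data (21732 genes, 200 changed), with means taken over all 9 libraries and spreads averaged over the 3 genotypes. It recovered 77.5% of changes of 1 log2 unit and 6% of changes of 0.5. With so few genes changed, the adjusted threshold is stricter than in the data, so these shares do not carry over.

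Named were the grain shape genes of the study that match 1 row (tolerance 0.0051 FPKM), *MCM4*, and the 2 largest rises and falls among called genes with non-overlapping libraries. The reference table pairs 1 identifier of 39387 rows, so members of the 14 background lists (224 identifiers) are not named. Members and lists were chosen with earlier results of these data known. Python 3.11.15, pandas 2.3.3, numpy 2.4.6 and matplotlib 3.10.9 were used. Alternatives were another pseudocount (0.1), no filter, a minimum of 5 FPKM, 2 rescalings, only the 6 libraries, a replicate block, no trend, a minimum change, and each library left out.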

Additional observations from a re-analysis of the deposited data

How the results depend on the processing

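Of 423 fits of single named genes under the alternatives, 364 kept call and direction, 59 lost the call and 0 reversed. The total of 5223 calls stayed within 1.5 times under all alternatives except a minimum log2 fold change of 1, which left 580 (56 higher and 524 lower in ZH11-OE-1), 0 and 1 of the grain shape rises and falls and 0 photosynthesis falls, and 3 of the libraries left out. With each library left out in turn, total calls ran from 2360 to 5653, rises from 498 to 2001, falls from 1862 to 3652, grain shape rises from 3 to 11, grain shape falls from 6 to 11 and photosynthesis falls from 2 to 14. Quantile normalization gave 3011 rises and 7 photosynthesis falls, and no filter gave 7. The cause was not tested. The largest changes were ranked again on log2(FPKM + 0.1), and 20 of the 30 were shared. The replicate numbers did not pair the libraries (r of same-numbered deviations across genes -0.0682 to 0.0116); a replicate block gave 1922 rises and 3473 falls, and *TUD1* lost its call (limma adjusted p = 0.057). Relative depth differed by at most 1.15 times between libraries. Changes of 0.5 log2 units were seldom recovered in simulated data with 200 changed genes. That is far fewer than the 5223 called here, so the simulation does not give the recovery of such changes in these data.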
